A study of Mus musculus with 15 samples.

Results

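The genes described here are the adrenergic receptors, the subunits of heterotrimeric G proteins, and the cyclases, kinases and regulators that act with them, as measured in mouse left ventricle after pressure overload. They were chosen by symbol alone: every probe set with 1 gene symbol in the platform annotation was taken if that symbol named an alpha- or beta-adrenergic receptor, a G-protein alpha, beta or gamma subunit, an RGS protein, an adenylyl cyclase, a G-protein-coupled receptor kinase (Grk), or began with Prka. This gave 83 of 12422 probe sets, standing for 58 of the 8251 genes with a symbol. A further probe set was shared by Gng5 and a pseudogene and was left out. Total RNA was hybridised to 15 one-colour oligonucleotide arrays, 1 per sample. The groups were 3 female hearts with the operation labelled TAC, 3 male hearts with TAC, 3 female sham hearts and 6 male sham hearts. The labels give no strain, age, genotype or time since the operation, nor whether the hearts are those of different animals. The p-values therefore speak only of the spread among these 15 samples, which may be technical.

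Beta-adrenergic receptors bind noradrenaline and adrenaline and activate Gs, whose alpha subunit switches on adenylyl cyclase; the cyclic AMP that follows activates protein kinase A (PKA), which phosphorylates the calcium cycling and sarcomere proteins of the cardiac myocyte. Alpha1 receptors act through Gq and phospholipase C, and Gi opposes Gs at the cyclase. RGS proteins speed up the return of G alpha subunits to the inactive state, and Grk kinases mark active receptors for uncoupling by arrestins. In failing hearts this system is known for desensitisation of the receptors to catecholamines.

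The members by role were 2 receptors, 26 probe sets of G alpha subunits, 7 of G beta, 9 of G gamma, 8 of adenylyl cyclases, 6 of PKA subunits, 2 of receptor kinases and 20 of RGS proteins. The symbol patterns also took in 2 subunits of AMP-activated protein kinase (AMPK), Prkab1 and Prkag1, which belong to an energy-sensing kinase and not to PKA, and Gnasas1, an antisense transcript of the Gnas locus. No probe set matched Adrb1, Adrb3, Adra1a, Grk2 or Adcy5, and these genes were not analysed here. The unit of the values is array intensity, linear and arbitrary, and anything under 20 was set to 20 before taking log2. Of the 83 members, 42 were above 20 on all 15 arrays and 15 were below it on all of them. Testing was limited to the upper 60% of probe sets by mean log2 value over all arrays, which kept 58 members of 44 genes and left 25 probe sets described by their intensities alone. Of the tested members, 16 had at least 1 array below 20, and for these the fitted difference depends on the floor.

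The median over all probe sets was 21.3 to 26.7 units per array, and precision is limited by how many arrays there are. Female TAC 1 had the lowest median, with 48.4% of probe sets below 20. Male sham 7 came next, with 23.8 units and 45.2%. Female TAC 1 also had the lowest median correlation with the other arrays, 0.936. As a check of the operation, the natriuretic peptide and skeletal actin genes were read first. Nppa, the atrial natriuretic peptide gene, lay between 1045 and 2549 units on the 6 TAC arrays and between 111 and 307 on the 9 sham arrays (log2 change 2.83 ± 0.22, SE, limma adjusted p = 1.29e-06). Acta1, alpha skeletal actin, lay between 2463 and 4042 units with TAC and between 544 and 1003 after sham. The 2 tested atrial markers, Myl7 and Myl4, varied widely. Their sum was 227 to 306 units in female TAC and 286 to 456 in female sham hearts. In males it was 152 to 506 with TAC and 73.5 to 527 after sham. Whether atrial tissue was in the samples was not tested. Of the 8 cardiomyocyte markers listed, 6 were tested, and their summed intensity was 20288 to 25611 over the TAC arrays and 21155 to 26101 over the sham arrays. All 6 were lower with TAC, as 58.2% of all probe sets were, with a median log2 change of -0.17. None passed the test. Tnnt2, Myl2 and Myl3 had log2 changes smaller than their SE (-0.03 ± 0.10, -0.05 ± 0.08 and -0.06 ± 0.12). Myh6, Tnni3 and Ryr2 had -0.32 ± 0.13, -0.27 ± 0.13 and -0.52 ± 0.13 (SE). Of 6 tested fibroblast markers 5 were higher with TAC, as 41.8% of all probe sets were, with a median change of 0.41, and none passed. Their sum was 1424 to 2237 units in female TAC hearts and 1373 to 1440 in female sham hearts, and 1612 to 1909 in male TAC hearts and 1068 to 1490 in male sham hearts.

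The comparison asked which genes of the adrenergic and G-protein system stood higher or lower after TAC than after sham, as the mean of the female and the male effect. None of the 58 tested members passed at an adjusted p under 0.05 in limma, where 0.322% of all 7453 probe sets tested passed. The adjusted p of the members ran from 0.436 to 0.999. Members with an unadjusted p under 0.05 numbered 4, or 6.90%, against 7.51% of all probe sets. Those 4 were Gnb5, which was higher with TAC as 2.86% of all probe sets were at that p, and Adcy2, Adcy6 and Prkab1, which were lower as 4.66% were. The median log2 change was -0.02 over the members and -0.03 over all probe sets, with 32 members lower (58.2% of all probe sets were) and 26 higher (41.8%). No member had its 6 TAC arrays all above or all below the 9 sham arrays, a separation that 0.255% of all probe sets showed upward and 0.161% downward. In whole ventricle, fewer cells of a type and less RNA per cell cannot be told apart.

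Although no member passed, the arrays set limits on the size of change in deposited intensity. These are not limits on the change of RNA, because no detection call was used and unspecific signal was not measured. The ratio of TAC to sham ran from 0.758 for Adcy2 to 1.23 for Gnb5. The 95% interval of the ratio lay within 1.5-fold in both directions for 54 of the 58 members and within 2-fold for all 58. Those that reached past 1.5-fold were Adcy2 (down to 0.610), Prkab1 (down to 0.649), 1 probe set of Rgs19 (down to 0.647) and 1 of Gnao1 (up to 1.67). For the 16 members near the floor these limits depend on it, because values under 20 were made equal.

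**Figure D1:**
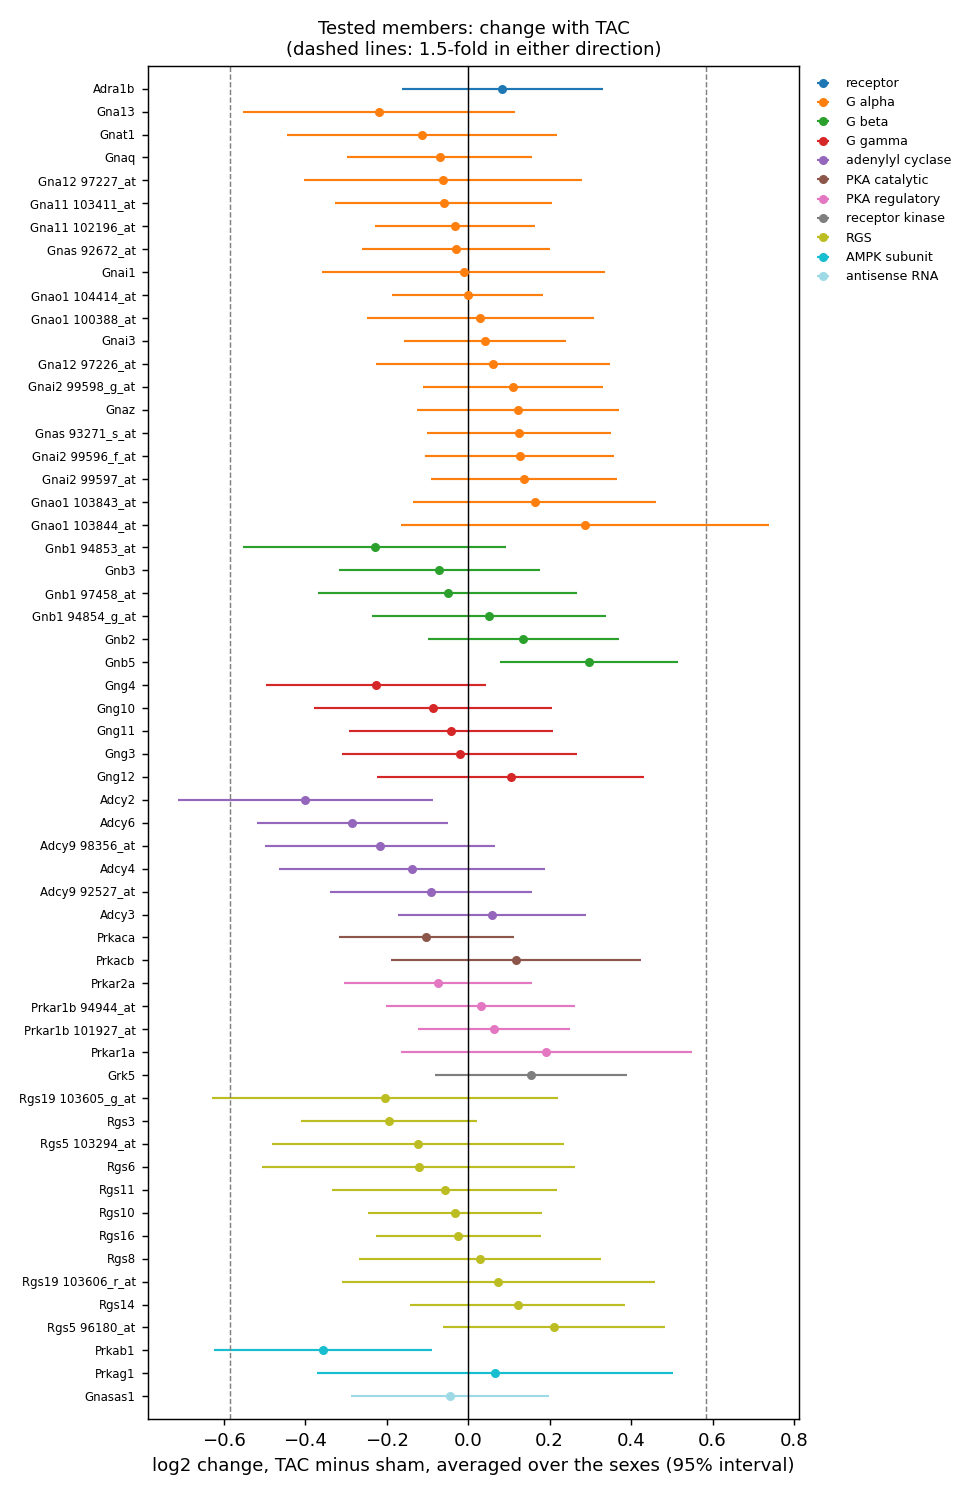
The log2 change with TAC, averaged over the sexes, is plotted for each of the 58 tested probe sets with its 95% interval, coloured by role; dashed lines mark 1.5-fold. The intervals of Gnb5, Adcy2, Adcy6 and Prkab1 leave out 0, and no member passed after adjustment over all probe sets.

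Among the receptors, only Adra1b, the alpha1B receptor, which couples to Gq, was bright enough to be tested. Female TAC arrays had 87.9, 77.1 and 108 units for Adra1b and female sham arrays 75.1, 79.8 and 90.1. In males it had 104, 69.9 and 91.7 units with TAC, and the sham arrays ran from 72.3 to 97.6 with a median of 87.0. The groups overlapped in both sexes. Its log2 change was 0.08 ± 0.12 (SE, adjusted p = 0.912), and the ratio of TAC to sham had an interval of 0.894 to 1.26. Adra2c, the alpha2C receptor, which couples to Gi, was below 20 on 5 of 6 TAC arrays and 6 of 9 sham arrays. Male TAC 4 stood highest for Adra2c with 29.1 units, while the other TAC arrays lay between 14.9 and 18.1 and the sham arrays between 13.0 and 25.4.

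G alpha subunits were represented by 14 genes, of which 11 had a tested probe set. Of the 19 tested probe sets, 10 were higher and 9 lower with TAC (41.8% and 58.2% of all probe sets were), with a median log2 change of 0.03. None passed. Gnas, which encodes the Gs alpha subunit and related transcripts of an imprinted locus, had 1235, 1064 and 1207 units on the female TAC arrays and 1137, 897 and 1160 on the female sham arrays. On male TAC arrays Gnas had 1131, 1317 and 1419 units, against 1064 to 1501 with a median of 1158 on male sham arrays. In 5 of 6 TAC hearts this probe set was above the sham mean of the same sex, but the groups overlapped. The log2 change of Gnas was 0.12 ± 0.11 (SE, adjusted p = 0.851). A second probe set named Gnas was below 20 on 4 TAC and 3 sham arrays, and the remaining one was below 20 on all 15.

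Gnai2, an inhibitory alpha subunit, was read by 3 probe sets, and all leaned the same way, with log2 changes of 0.13, 0.14 and 0.11. The first had 431, 568 and 493 units in female TAC hearts, against 403, 461 and 497 in female sham hearts. Its male TAC values were 403, 467 and 474, against 342 to 476 with a median of 414 in male sham hearts. None of the 3 passed (adjusted p = 0.834 to 0.872), and their TAC and sham values overlapped. Gnai3, another inhibitory subunit, had a log2 change of 0.04 ± 0.09 (SE, adjusted p = 0.945).

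Gnaq and Gna11, the subunits that link alpha1, angiotensin and endothelin receptors to phospholipase C, showed no difference that passed. Gnaq had 34.0, 28.1 and 37.1 units in female TAC hearts, against 31.2, 32.1 and 31.0 in female sham hearts. Male TAC hearts had 23.6, 25.4 and 31.3 units of Gnaq, against 25.1 to 36.6 with a median of 31.1 in male sham hearts. The values of TAC and sham were thus interleaved in both sexes, and the log2 change was -0.07 ± 0.11 (SE, adjusted p = 0.920). One probe set of Gna11 had -0.06 ± 0.13 (SE, adjusted p = 0.943).

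Gna13 and Gna12 encode a further pair of alpha subunits. A probe set of Gna13 had 40.8, 43.6 and 33.9 units in female TAC hearts, against 46.4, 31.1 and 40.5 in female sham hearts. Male hearts had 27.4, 26.1 and 44.4 units with TAC, against 28.3 to 52.3 with a median of 46.1 in sham hearts. The low male values were those of male TAC 4, male TAC 5 and male sham 4. Its log2 change averaged -0.22 ± 0.16 (SE, adjusted p = 0.812). The 2 probe sets of Gna12 had log2 changes of 0.06 and -0.06.

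Gnao1 and Gnaz are Gi-family subunits best known from neurons, and both were read here in whole ventricle. Gnao1 had 4 tested probe sets, with log2 changes between -0.00 and 0.29, none of which passed. The one with the largest value had 19.6, 47.3 and 33.0 units in female TAC hearts and 23.0, 27.1 and 17.0 in female sham hearts. In males that probe set had 23.8, 35.6 and 31.1 units with TAC and 11.4 to 51.6 with a median of 26.1 after sham. Its SE was the largest among the tested members, with a log2 change of 0.29 ± 0.21 (SE, adjusted p = 0.812). Without female TAC 2 this Gnao1 value was 0.14, and without female TAC 1 it was 0.45. Gnaz had 38.4, 45.3 and 47.3 units in female TAC hearts, against 33.5, 41.8 and 31.3 in female sham hearts. In males Gnaz had 31.9, 43.9 and 48.6 units with TAC, against 35.7 to 48.9 with a median of 43.2 after sham. Its log2 change was 0.12 ± 0.12 (SE, adjusted p = 0.872), and 5 of 6 TAC hearts were above the sham mean of their sex. The Gnaz value was 0.06 without male TAC 6 and 0.21 without male TAC 4. Of 8 listed markers of sympathetic nerve and Schwann cells, 3 were tested, 2 higher and 1 lower with TAC, with a median of 0.05. Their summed intensity was 310 to 541 units over TAC arrays and 328 to 619 over sham arrays. Th alone had 162 to 259 units over TAC arrays and 154 to 238 over sham arrays. Whether these markers follow neuronal RNA in these samples was not tested.

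Of the G beta subunits, Gnb5 had the smallest p of all 58 members. Gnb5 is an atypical beta subunit that pairs with RGS proteins of the R7 group. On female TAC arrays it had 28.2, 30.8 and 25.4 units, against 16.0, 24.9 and 17.0 on female sham arrays. On male TAC arrays it had 16.0, 29.6 and 23.2 units, against 11.8 to 23.0 with a median of 17.9 on male sham arrays. All female TAC hearts were thus above all female sham hearts, with 25.4 against 24.9 units at the nearest, whereas male TAC 4 lay within the male sham range. A probe set of Gnb1 separated the female hearts likewise, with 27.0 to 29.3 units with TAC and 24.0 to 26.8 after sham. The share of all probe sets that separated them so was not computed. Gnb5 was below 20 on 6 of the 9 sham arrays and on 1 of the 6 TAC arrays. The log2 change was 0.30 ± 0.10 (SE, adjusted p = 0.436), a ratio of 1.23 with an interval of 1.06 to 1.43. With the floor lowered to the 10th percentile of all values it was 0.45 (adjusted p = 0.558). An exact two-sided permutation test that swapped TAC and sham among hearts of the same sex, over 1680 arrangements with a smallest possible p of 0.000595, gave p = 0.00655 for Gnb5, unadjusted for the 58 members so tested. The R7 partners Rgs6 and Rgs11 had log2 changes of -0.12 ± 0.18 and -0.06 ± 0.13 (SE), while Rgs7 and Rgs9 were too dim to be tested.

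Gnb1 and Gnb2 are the usual beta subunits of the heart. Gnb2 had 206 to 267 units over TAC arrays with a median of 236, against 159 to 261 with a median of 212 over sham arrays, and a log2 change of 0.14 ± 0.11 (SE, adjusted p = 0.839). The 3 probe sets of Gnb1 disagreed in sign, with log2 changes of -0.23, -0.05 and 0.05. The first had 37.8, 50.5 and 43.5 units in female TAC hearts, against 41.0, 57.2 and 51.9 in female sham hearts. Its male TAC values were 25.4, 38.8 and 55.2, against 35.2 to 50.4 with a median of 47.7 in male sham hearts. Male TAC 4 was the lowest of the 15 arrays for that probe set, and without it the value was -0.08. Another Gnb1 probe set had 51.6, 62.7 and 57.0 units in female TAC hearts, against 61.9, 54.4 and 71.7 in female sham hearts. In males it had 44.1, 53.6 and 69.5 units with TAC, against 37.9 to 75.4 with a median of 55.4 in sham hearts, so the groups were interleaved. Gnb3 had -0.07 ± 0.12 (SE, adjusted p = 0.925), and Gnb4 was below 20 on 14 of 15 arrays.

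G gamma subunits anchor the beta-gamma dimer to the membrane. Of the 5 tested, 4 were lower and 1 was higher with TAC (58.2% and 41.8% of all probe sets were), and none passed. Gng4 had 155, 103 and 138 units in female TAC hearts, against 150, 145 and 138 in female sham hearts. In males Gng4 had 128, 131 and 161 units with TAC, against 137 to 215 with a median of 176 after sham. In 5 of 6 TAC hearts Gng4 was below the sham mean of the same sex, and the groups overlapped in both sexes. Its log2 change was -0.23 ± 0.13 (SE, adjusted p = 0.743). Gng10, Gng11, Gng3 and Gng12 had log2 changes between -0.09 and 0.10.

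**Figure D2:**
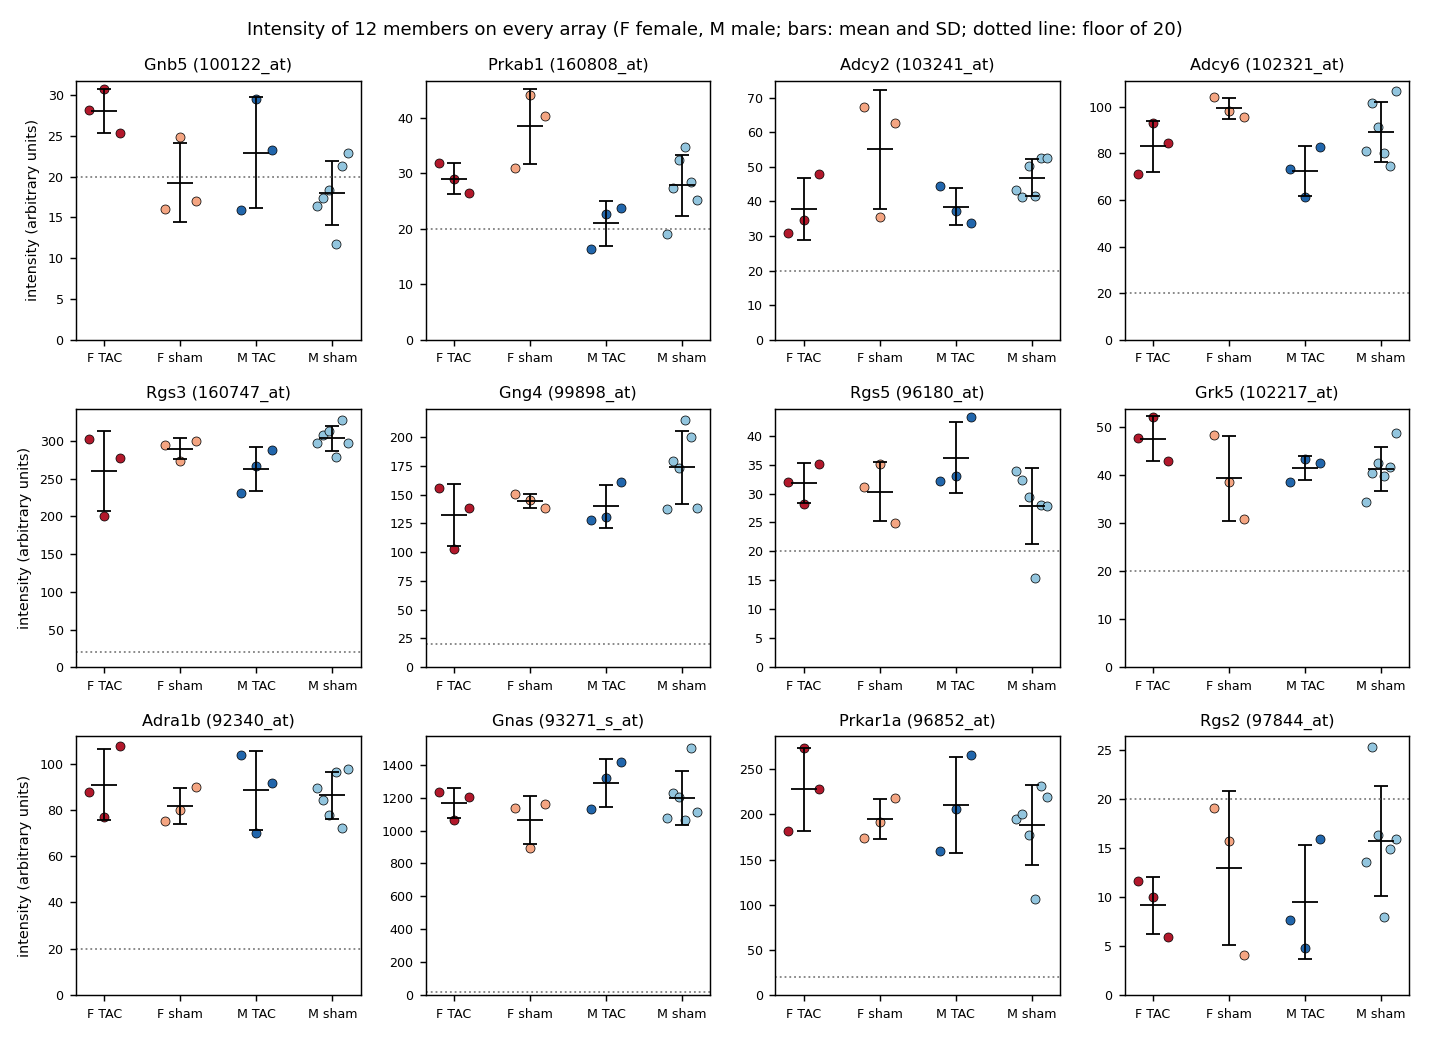
Intensity in arbitrary units is plotted for 12 members on every array, by group, with the mean and SD as bars and the floor of 20 as a dotted line; for Adcy6 the female TAC values (71.2 to 93.3) lie below the female sham values (95.5 to 104). For Gnb5 the female TAC values lie above the female sham values, and Rgs2 is below 20 on 14 of 15 arrays. How many of all probe sets separate the female hearts so was not computed.

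Adenylyl cyclases make cyclic AMP from ATP, and Adcy6 is one of the main forms in cardiac myocytes. The 6 tested cyclase probe sets were of 5 genes, with 2 for Adcy9. Of the 6, 5 were lower with TAC, as 58.2% of all probe sets were, with a median log2 change of -0.18. Those 5 were lower in both sexes, and the share of all probe sets lower in both was not computed. None passed. Adcy2 and Adcy6 were the 2 with an unadjusted p under 0.05. Adcy6 had 71.2, 93.3 and 84.6 units in female TAC hearts, against 104, 98.3 and 95.5 in female sham hearts. Male hearts had 73.1, 61.2 and 82.6 units with TAC, against 74.6 to 107 with a median of 86.1 after sham. All 6 TAC hearts were below the sham mean of their sex, without overlap in females and with overlap in males. How many of all probe sets show such a count or such a separation was not computed, here or for the other members. The log2 change of Adcy6 was -0.28 ± 0.11 (SE, adjusted p = 0.531), a ratio of 0.821 with an interval of 0.698 to 0.966. The exact permutation test gave p = 0.00952, unadjusted for the members tested. In the same hearts the summed cardiomyocyte markers were 20288 to 23840 units in female TAC hearts, against 24330 to 25276 in female sham hearts, and 20675 to 25611 in male TAC hearts, against 21155 to 26101 in male sham hearts. Those sums, like Adcy6, did not overlap in females and overlapped in males. Their part in the cyclase values was not tested.

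Adcy2, a cyclase stimulated by G beta-gamma, had the lowest ratio of all tested members. Female TAC hearts had 30.8, 34.7 and 47.9 units, against 67.2, 35.4 and 62.5 in female sham hearts. Male TAC hearts had 44.4, 37.3 and 33.7 units of Adcy2, against 41.4 to 52.4 with a median of 46.7 in male sham hearts. All 6 TAC hearts were below the sham mean of their sex. The female groups overlapped because female TAC 3 was above female sham 2. The log2 change was -0.40 ± 0.15 (SE, adjusted p = 0.478) and the exact permutation p was 0.0554. Adcy9 had 2 probe sets with log2 changes of -0.22 and -0.09. The first had 66.8, 64.9 and 56.5 units in female TAC hearts, against 70.1, 59.2 and 71.5 in female sham hearts. In males it had 32.4, 55.7 and 67.0 units with TAC, against 57.7 to 69.1 with a median of 62.5 after sham. The low value was that of male TAC 4, and without this array the change of Adcy9 was -0.06. Adcy4 had -0.14 ± 0.15 and Adcy3 0.06 ± 0.11 (SE), while Adcy7 and Adcy8 were below 20 on all 15 arrays.

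All 6 PKA probe sets, of 5 genes, were tested, and none passed. With TAC 4 were higher and 2 lower, against 41.8% and 58.2% of all probe sets. Prkaca, the main catalytic subunit, had 232, 203 and 222 units in female TAC hearts, against 233, 208 and 274 in female sham hearts. Male hearts had 239, 232 and 215 units with TAC, against 205 to 296 with a median of 243 after sham. Every TAC heart was below the sham mean of its sex, and all male TAC values lay inside the male sham range. The log2 change of Prkaca was -0.10 ± 0.10 (SE, adjusted p = 0.876), with an interval of the ratio from 0.803 to 1.08. Prkar1a, a regulatory subunit, had 182, 274 and 228 units in female TAC hearts, against 174, 192 and 218 in female sham hearts. Male TAC hearts had 159, 206 and 266 units of Prkar1a, against 107 to 232 with a median of 198 in male sham hearts. The spread within groups was wider than the difference, with a log2 change of 0.19 ± 0.17 (SE, adjusted p = 0.861). Prkacb had 0.12 ± 0.15, Prkar2a -0.07 ± 0.11 and the 2 probe sets of Prkar1b 0.06 ± 0.09 and 0.03 ± 0.11 (SE).

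Grk5, a receptor kinase that also acts in the nucleus of stressed myocytes, had 47.6, 52.1 and 42.8 units in female TAC hearts, against 48.3, 38.6 and 30.8 in female sham hearts. In males it had 38.6, 43.3 and 42.4 units with TAC, against 34.3 to 48.7 with a median of 41.0 after sham. In 5 of 6 TAC hearts it was above the sham mean of the sex, with overlap throughout. The log2 change was 0.15 ± 0.11 (SE, adjusted p = 0.812). It was 0.07 without female sham 3 and 0.23 without female sham 1. Grk6 was below 20 on 5 TAC and 5 sham arrays and was not tested.

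RGS proteins made up 20 probe sets of 13 genes, of which 11 probe sets of 9 genes were tested. Among those tested, 7 were lower and 4 higher with TAC (58.2% and 41.8% of all probe sets were), with a median log2 change of -0.03. None passed. Rgs3, which acts on Gi and Gq, had 303, 200 and 278 units in female TAC hearts, against 295, 274 and 300 in female sham hearts. Male TAC hearts had 231, 267 and 289 units of Rgs3, against 279 to 328 with a median of 303 in male sham hearts. In 5 of 6 TAC hearts Rgs3 was below the sham mean of the sex, and female TAC 1 was above all female sham hearts. Its log2 change was -0.19 ± 0.10 (SE, adjusted p = 0.719), and the exact permutation p was 0.0286, unadjusted. Without female TAC 2 the value was -0.11.

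Rgs5, which is abundant in pericytes and smooth muscle, gave opposite signs on its 2 tested probe sets. One had 32.0, 28.3 and 35.1 units in female TAC hearts, against 31.1, 35.0 and 24.8 in female sham hearts. Male hearts had 32.2, 33.0 and 43.3 units with TAC, against 15.5 to 33.8 with a median of 28.7 after sham. The low end was male sham 7 alone, and the log2 change was 0.21 ± 0.13 (SE, adjusted p = 0.771). The other probe set of Rgs5 had 8.78, 34.9 and 36.0 units in female TAC hearts, against 34.6, 29.0 and 35.0 in female sham hearts, with a log2 change of -0.12 ± 0.17 (SE, adjusted p = 0.911). Female TAC 1 stood apart there, while on the first probe set it lay among the rest. Of 7 tested genes listed as markers of smooth muscle and pericytes 5 were lower with TAC, as 58.2% of all probe sets were. None passed, and their median was -0.18. The largest change was that of Abcc9, -0.55 ± 0.15 (SE, limma adjusted p = 0.213). Whether the 7 genes are expressed in those cells alone was not tested. Their sum was 270 to 420 units in female TAC hearts and 442 to 512 in female sham hearts, and 364 to 420 in male TAC hearts and 391 to 491 in male sham hearts. Their part in the values of Rgs5 was not tested.

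Rgs2 and Rgs4, which limit Gq signalling in the heart, were too dim to be tested. Rgs2 had 11.6, 9.97 and 5.95 units in female TAC hearts, against 19.0, 15.8 and 4.05 in female sham hearts. In males it had 7.60, 4.82 and 16.0 units with TAC, against 8.00 to 25.3 with a median of 15.4 after sham. Only 1 array, of a male sham heart, reached 20, so no ratio is given. Rgs4 had 8.72, 16.2 and 13.1 units in female TAC hearts, against 9.65, 17.3 and 12.5 in female sham hearts. Its male TAC values were 10.1, 24.2 and 23.1, against 1.25 to 22.9 with a median of 11.1 in male sham hearts. Rgs4 thus reached 20 on 2 of 6 TAC arrays and 1 of 9 sham arrays. At these intensities a difference was not detectable. Rgs10, Rgs14 and Rgs16 each had 1 tested probe set, with log2 changes of -0.03, 0.12 and -0.02.

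The AMPK subunit Prkab1, taken in by its symbol, had the second smallest p. Prkab1 encodes the beta1 subunit, which holds the kinase complex together. Female TAC hearts had 31.9, 28.9 and 26.4 units, against 31.0, 44.1 and 40.3 in female sham hearts. Male TAC hearts had 16.4, 22.7 and 23.8 units of Prkab1, against 19.1 to 34.7 with a median of 27.8 in male sham hearts. All 6 TAC hearts were below the sham mean of their sex, with overlap in both sexes. The log2 change was -0.36 ± 0.13 (SE, adjusted p = 0.447), and the exact permutation p was 0.0161, unadjusted. When 20 was added to every value instead of a floor, it was -0.23 (adjusted p = 0.490). Prkag1, the gamma1 subunit, had 0.07 ± 0.21 (SE, adjusted p = 0.962). Without the AMPK subunits and the antisense transcript, 3 of 55 members had an unadjusted p under 0.05.

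**Figure D3:**
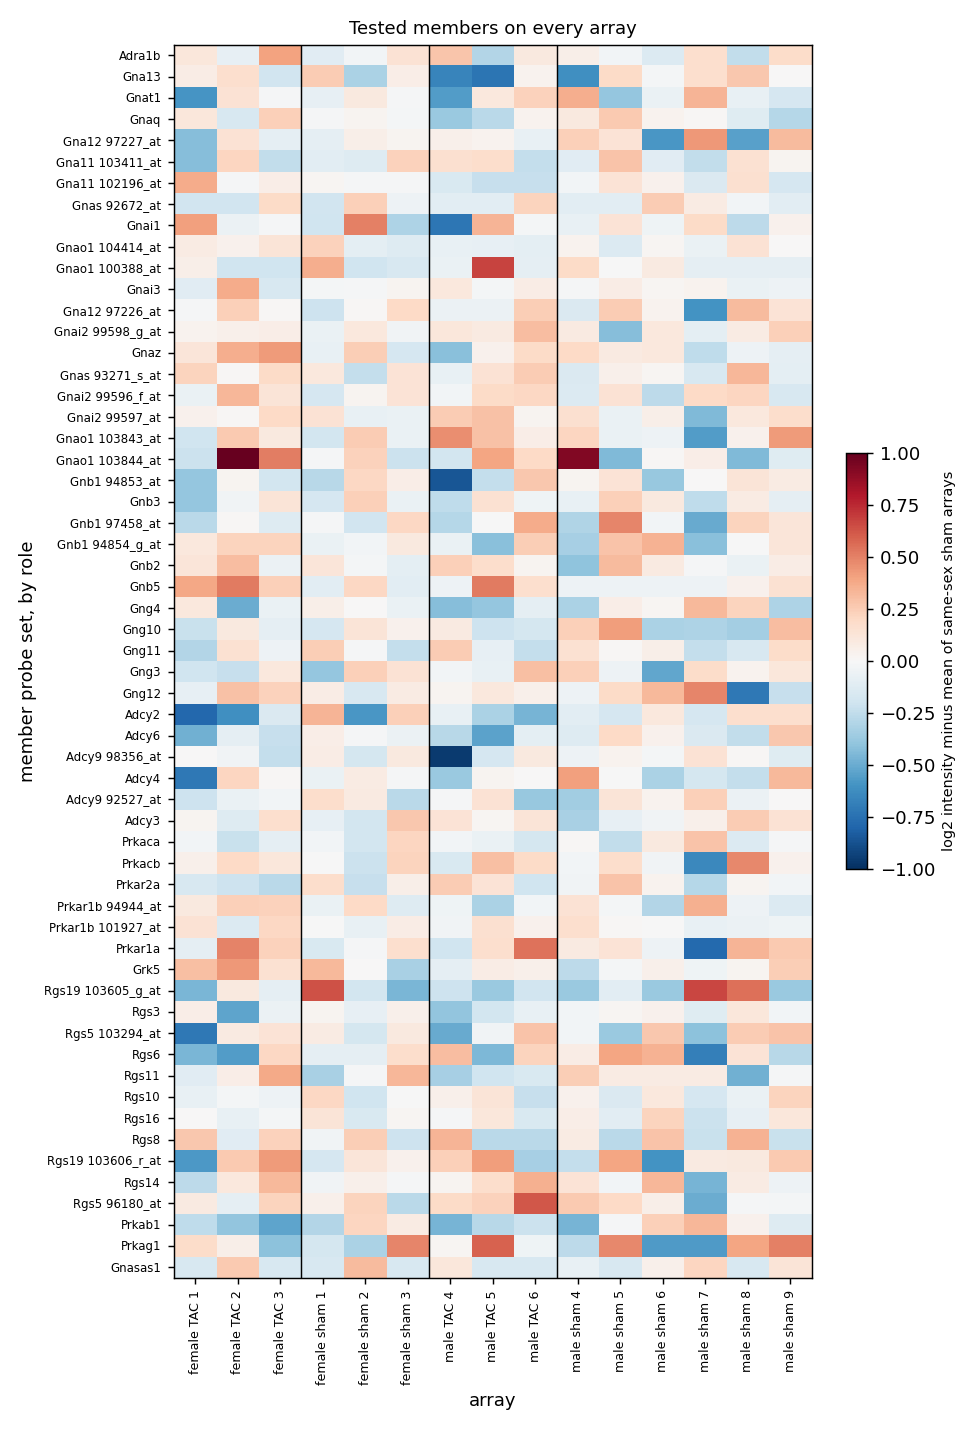
Colour shows the log2 intensity of each tested member on each array, minus the mean of the sham arrays of the same sex; the colours end at 1 and -1, and 1 value lies beyond. Rows are grouped by role, and the medians of the TAC columns lie between -0.07 and 0.07.

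Probe sets of one gene gave a measure of how far single values can be read. Of the 44 tested genes, 10 had more than 1 tested probe set, and in 6 of these the log2 changes differed in sign, namely Gna12, Gnao1, Gnas, Gnb1, Rgs19 and Rgs5. In the other 4, Adcy9, Gna11, Gnai2 and Prkar1b, they shared a sign. Some probe sets of Gnai2, and some of Gnb1, come from the same source sequence and are not independent. Of the 58 tested probe sets, 7 carry a letter before the ending of their name, which the array's maker used where probes were picked under relaxed rules or may bind related transcripts. The median of the members on each TAC array, relative to sham hearts of the same sex, lay between -0.07 on female TAC 1 and 0.07 on female TAC 3.

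In females, comparing 3 TAC with 3 sham hearts, no member passed, where 0.0805% of all probe sets did in limma. There 30 members were higher and 28 lower with TAC, against 40.6% and 58.7% of all probe sets. Gnb5, with a log2 change of 0.38 ± 0.16, and Adcy2, with -0.51 ± 0.22 (SE), were the members with an unadjusted p under 0.05, which 4.59% of all probe sets had (1.61% higher, 2.98% lower). In males, with 3 TAC and 6 sham hearts, no member passed either, where 0.134% of all probe sets did. Members were split into 29 higher and 29 lower, against 47.3% and 52.7% of all probe sets. Gna13, with -0.45 ± 0.21 (SE), was the only member with an unadjusted p under 0.05, against 6.2% of all probe sets (3.22% lower). The change had the same sign in both sexes for 39 of the 58 members, or 67.2%, and for 57.7% of all probe sets. Both effects share an estimate of spread.

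**Figure D4:**
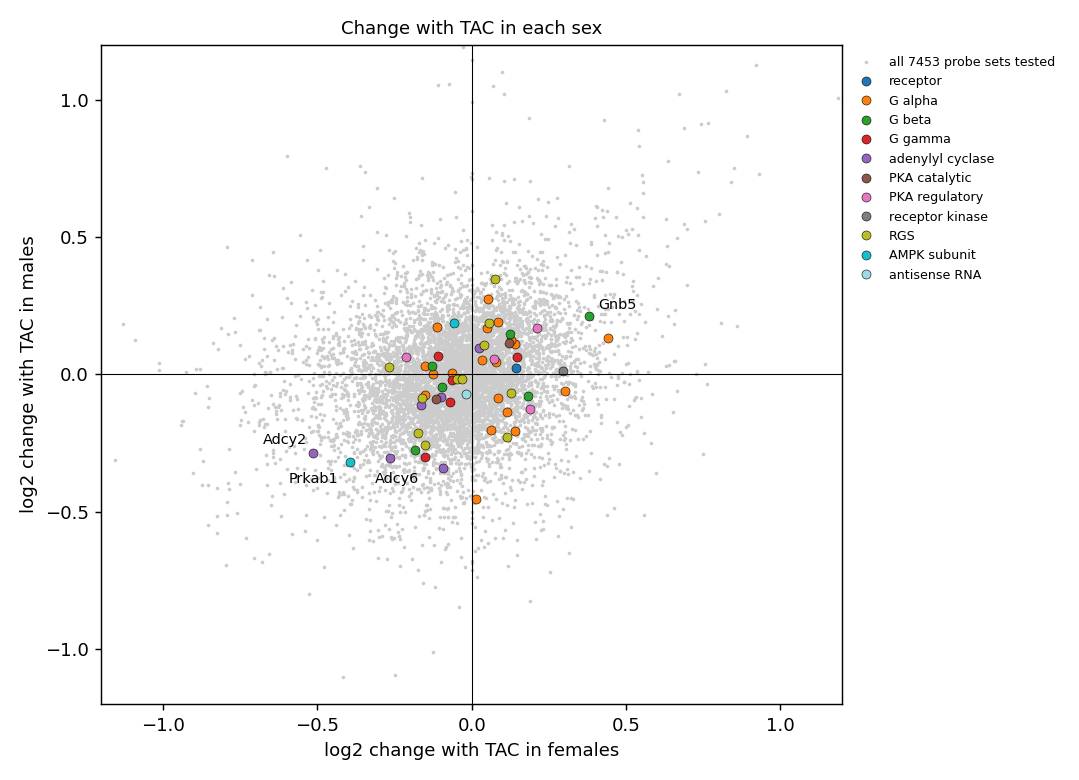
Each point is a probe set, with the log2 change in females across and in males upward; members are coloured by role over all probe sets tested in grey, of which 15 lie outside the axes. Gnb5 lies to the upper right, and Adcy2, Adcy6 and Prkab1 to the lower left.

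Whether the effect of TAC depended on sex was tested as an interaction, where the log2 change was higher in females for 29 members and higher in males for 29, against 44.8% and 55.2% of all probe sets. No member and 0% of all probe sets passed in limma, and no member reached an unadjusted p under 0.05, which 2.56% of all probe sets did. The smallest p belonged to a probe set of Gna11 near the floor, with a difference of 0.35 ± 0.19 (female minus male, SE, adjusted p = 1.00). It had 26.0, 19.1 and 21.0 units in female TAC hearts, against 20.4, 19.6 and 18.6 in female sham hearts. Male hearts had 21.1, 18.9 and 18.4 units with TAC, against 20.9 to 26.1 with a median of 23.6 after sham, all close to the floor. Gnaz and Gna13 followed, with differences of 0.36 ± 0.23 and 0.47 ± 0.32 (SE).

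Between female and male sham hearts no member passed after adjustment, nor did any probe set (0%). Sex was taken from the labels and was not checked against sex-linked genes, here or in the other comparisons. At an unadjusted p under 0.05 there was 1 member, Prkab1, against 4.71% of all probe sets (3.31% higher in females). It was higher in female sham hearts by 0.46 ± 0.17 on the log2 scale (SE, adjusted p = 0.974). Of all tested members 33 were higher in female and 25 in male sham hearts, against 60.9% and 39.1% of all probe sets. Gna11 and Gnaz came next, with -0.22 ± 0.12 and -0.27 ± 0.15 (female minus male, SE).

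Other genes of the pathway were read from 9 lists of 104 genes, of which 64 had a probe set and 47 were tested. None passed in the averaged comparison in limma, where 0.322% of all probe sets did, and 4 (8.51%) had an unadjusted p under 0.05, against 7.51% of all probe sets, with 23 higher and 24 lower and a median log2 change of -0.01. With 1 probe set per gene, that of the highest mean, the lowest adjusted p outside the PKA substrates and the Gq effectors was 0.752. These other lists held arrestins and G-protein regulators, phosphodiesterases, PKA anchors and inhibitors, CaM kinase II with CREB factors and Epac, other receptors, catecholamine enzymes and transporters, and AMPK regulators and targets. Of the PKA substrates 3 were higher and 4 lower with TAC, and of the Gq effectors 5 were higher and 4 lower. The smallest p among PKA substrates was that of Ryr2, the calcium release channel, with -0.52 ± 0.13 (SE, adjusted p = 0.166). It had 227 to 371 units over TAC arrays with a median of 300, against 301 to 488 with a median of 431 over sham arrays. Ryr2 and Tnni3 also stand among the cardiomyocyte markers. The potassium channel gene Kcnq1 had -0.31 ± 0.10 (adjusted p = 0.335) and, on its other probe set, -0.46 ± 0.13 (SE, adjusted p = 0.199). Tnni3, cardiac troponin I, had -0.27 ± 0.13 (adjusted p = 0.667), and Mybpc3, myosin-binding protein C, 0.20 ± 0.10 (SE, adjusted p = 0.686). Among Gq effectors, the protein kinase C genes Prkca and Prkcq had 0.33 ± 0.13 and 0.37 ± 0.15 (SE, adjusted p = 0.531 for each). Prkca had 30.5 to 48.3 units over TAC arrays and 23.6 to 45.5 over sham arrays, and Prkcq had 26.6 to 45.1 units over TAC arrays and 18.7 to 33.4 over sham arrays. The groups of both overlapped. The thrombin receptor gene F2r, also coupled to Gq, had 3 tested probe sets with log2 changes of 0.45, 0.20 and 0.12, none of which passed (adjusted p = 0.123 for the first, which is not the one used in the counts).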

How the data were processed

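The deposited table held probe-set intensities on a linear scale for 12488 probe sets, 66 of them controls; for the authors' software, background correction and scaling, a description is not given in the sources used here. Array levels were kept as deposited. Values were floored at 20, log2 was taken, and the 7453 probe sets with the highest mean (60%) were tested. Between 42.4% and 48.4% of probe sets on an array were below the floor. All 15 arrays entered 1 limma fit (version 3.58.1, lmFit and eBayes, R 4.3.3) of the 4 group means, with Benjamini-Hochberg adjustment over all tested probe sets. Errors after ± are SE. Gene symbols came from the platform annotation, updated through a RefSeq table of assembly GRCm38.p6, which changed 0 member symbols.

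Values on every array are given for the 12 members of smallest p, for the 3 of smallest p in the interaction and in the sham comparison, and for a core of receptor, G-protein, cyclase, PKA and RGS genes; of the other pathway genes, the 6 of smallest p are named. F2r and the members below the floor were named in addition, with values seen. The symbol rule that defines the members, the lists and the alternatives were set with earlier results of these data known. The method was tested on simulated data.

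Titles of TAC and sham hearts share numbers. Deviations of same-numbered hearts correlated at 0.244, 0.270 and 0.117 in females and at 0.0641, -0.0828 and 0.0136 in males, so the limit of 0.1 was passed in females alone, and the replicate block was run as an alternative. No batch is given in the labels. The 13 alternatives besides leaving out each of the 15 arrays concerned normalization, floor, filter, eBayes, weights, model and block, and not each of them applies to each comparison.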

Additional observations from a re-analysis of the deposited data

Results flagged for a closer look

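The 6 male sham arrays were searched for values far from the rest in each of the 58 tested members, and 7 stood apart (12.1%). The same search over all 7453 tested probe sets found 9.51%. Male sham 4 was lowest for the Gna13 probe set described above, with 28.3 units against 42.8 for the next, and highest for a Gnao1 probe set, with 51.6 against 28.5, and for a Prkar1b probe set, with 273 against 244. Male sham 7 was lowest for Prkar1a, with 107 units against 177 for the next, and for the first Rgs5 probe set, with 15.5 against 27.8. Male sham 6 was lowest for a Gnb1 probe set, with 35.2 against 46.1, and male sham 8 for Rgs11, with 70.2 against 97.2. No member differed between the sexes in its TAC effect by the interaction test, and no dim member had all 6 TAC arrays above 20 and above the sham arrays.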

How the results depend on the processing

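No member was called under the alternatives run for each comparison (12 for the averaged one, 11 each for females, males and sham hearts, 10 for the interaction), without any of the 15 arrays, or with a replicate block in females alone, which was chosen after seeing the data. Where a member passed under neither setting, its result was counted as kept, also if the sign differed. The lowest adjusted p among the 21 named members in the averaged comparison was 0.103, for Prkab1 with array weights. The averaged comparison had 4 members at an unadjusted p under 0.05. This became 2 with the stricter filter, which tested 40 members, and 6 with array weights. It was between 3 and 8 without single arrays, with 8 without male TAC 6 and 6 without female TAC 1, and 3 without male TAC 5. The counts of such members ran from 0 to 3 in females over all runs, with 0 without female sham 3 or female TAC 2, and from 0 to 5 in males, with 5 without male sham 4 or male TAC 6. The count for the interaction ran from 0 to 2, and that for female against male sham hearts from 0 to 3. The median log2 change of the members in the averaged comparison ran from -0.02 to 0.02. Leaving out 1 array moved the averaged value of 16 of the 21 named members by over 1.5 times. The other 5 were Gnb5, Prkab1, Adcy2, Adcy6 and the first Rgs5 probe set. In that comparison 2 named members changed sign in some run, namely the Gna11 probe set near the floor and 1 of Gnb1, neither called. With the replicate block in both sexes the values of Gnb5, Adcy6, Adcy2 and Prkab1 were 0.32, -0.30, -0.37 and -0.32, and the block changed no call (0 members). Signal near the floor limits what dim members can show.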
